A study of Homo sapiens with 8 samples.

Results

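The HOX genes are the homeobox transcription factor genes of the HOXA, HOXB, HOXC and HOXD clusters. They were followed here through every probe set that the platform annotation ties to exactly 1 gene whose symbol is HOXA, HOXB, HOXC or HOXD plus its paralogue number, antisense transcripts excepted. This gave 44 probe sets for 28 genes, out of 54613 probe sets and 19775 genes with values in all, and out of 39 HOX genes that RefSeq lists. HOXB was covered by 10 genes and 19 probe sets, HOXC by 9 genes and 9 probe sets, HOXD by 8 genes and 15 probe sets, and HOXA by HOXA2 alone. The other 11 genes, which are HOXD3 and the rest of HOXA, had no probe set with a symbol of their own in this annotation and were not analysed here.

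The cells were Saos-2, an established human osteosarcoma line that is p53 null, and all groups share that line and that genotype. The arrays formed 3 groups: cells given the compound labelled Prima for 6 h (replicates 1, 2 and 3, 3 arrays), cells given it for 12 h (replicates 1 and 3, 2 arrays), and untreated cells (replicates 1, 2 and 3, 3 arrays). Replicate 2 at 12 h was not analysed here. No dose or vehicle is named in the sources used here. The labels leave it unsaid whether replicates were separate cultures, so a p-value weighs the spread between arrays only, and that spread may be technical.

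Each value is a probe-set signal, a brightness on a linear scale that the authors made with MAS5, which scales every array to a common level. The 2% trimmed mean was 100.01 on each of the 8 arrays. The replicate 2 arrays stood apart. Their median signal was 47.5 after 6 h and 50.8 untreated, against 14.2 to 24.9 on the other 6 arrays, and only 0.0714% and 0.0623% of their probe sets lay at or under a signal of 2.39, against 6.27% to 20.8% elsewhere. Dim genes read higher on those arrays. The ratio of the 3′ to the 5′ ACTB probe sets, a sign of RNA quality, was 1.73 on the 6 h replicate 1 array, 2.29 on the 12 h replicate 1 array and 1.12 to 1.38 on the others. Of 13 osteoblast lineage genes measured, 7 lay above the 75th percentile of every untreated array (RUNX2, ALPL, COL1A1, SPARC, DLX5, MSX2 and CDH11) and none lay below the median of all 3. Of 24 genes restricted to other organs, 0 lay above the 75th percentile of every untreated array, against 32.7% of all genes. Only 13 of the 24 lay below the median of all 3, and SFTPB had a lowest percentile of 66.5. A level above the median thus does not by itself show that a gene was expressed. Probe sets differ in affinity, so signals of different genes do not rank their mRNA amounts, and in bulk RNA fewer expressing cells and less RNA per cell cannot be told apart.

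HOX proteins bind DNA through a homeodomain, often together with PBX and MEIS partners, and give cells along the head-to-tail and limb axes their positional identity. Within a cluster the genes stand in the order of their paralogue numbers, and low numbers are used towards the head and high numbers towards the tail and the ends of the limbs. Mesenchymal cells such as fibroblasts and osteoblasts keep a HOX pattern in culture that reflects the body site they came from. Polycomb and trithorax chromatin complexes hold the clusters silent or active, and retinoic acid switches on the low-numbered genes first.

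RefSeq promoter windows (GRCh38.p14) were at hand for 11 of the 28 genes. Each holds 300 bases, 250 before the transcription start and 50 after it, all on the plus strand in the examples here. The windows below show how differently HOX promoters are built: HOXD4 (chr2:176151300-176151599) is a bright gene with few CG dinucleotides, HOXC4 (chr12:54016638-54016937) has a window that is the same, base for base, as that listed for HOXC5, HOXD10 (chr2:176116528-176116827) is of middle brightness, and HOXD12 (chr2:176099545-176099844) is the dimmest member. Capitals mark CG dinucleotides.
HOXD4: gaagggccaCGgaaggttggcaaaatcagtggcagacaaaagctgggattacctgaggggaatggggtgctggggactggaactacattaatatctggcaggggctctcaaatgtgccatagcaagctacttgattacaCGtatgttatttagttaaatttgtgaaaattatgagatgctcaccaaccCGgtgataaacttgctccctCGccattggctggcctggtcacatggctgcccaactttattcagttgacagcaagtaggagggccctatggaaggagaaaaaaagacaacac
HOXC4: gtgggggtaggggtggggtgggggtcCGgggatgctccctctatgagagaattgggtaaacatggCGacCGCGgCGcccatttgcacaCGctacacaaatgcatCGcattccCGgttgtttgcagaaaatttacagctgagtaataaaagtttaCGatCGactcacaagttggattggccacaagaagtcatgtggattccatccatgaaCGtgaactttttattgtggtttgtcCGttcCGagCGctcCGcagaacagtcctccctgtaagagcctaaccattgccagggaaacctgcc
HOXD10: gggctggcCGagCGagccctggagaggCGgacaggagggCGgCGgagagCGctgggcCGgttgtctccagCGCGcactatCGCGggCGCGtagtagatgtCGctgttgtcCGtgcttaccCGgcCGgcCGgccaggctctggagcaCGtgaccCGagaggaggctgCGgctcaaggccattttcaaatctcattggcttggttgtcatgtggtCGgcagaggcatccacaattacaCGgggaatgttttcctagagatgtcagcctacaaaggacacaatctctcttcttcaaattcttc
HOXD12: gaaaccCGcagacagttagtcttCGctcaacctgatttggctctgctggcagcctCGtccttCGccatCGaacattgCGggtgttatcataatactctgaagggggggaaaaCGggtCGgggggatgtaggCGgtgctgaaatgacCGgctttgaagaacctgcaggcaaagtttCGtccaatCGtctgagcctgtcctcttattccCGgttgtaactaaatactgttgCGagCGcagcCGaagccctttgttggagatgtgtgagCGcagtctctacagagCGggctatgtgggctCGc
HOXD4 held 4 CG dinucleotides, and 75.5% of all 35116 RefSeq windows held as many or more. HOXC4 held 15, HOXD12 held 19 and HOXD10 held 23. HOXD1 reached 36, a number that 12.7% of all windows reach. The member median was 19, against 14 over all windows. The bright HOXD4 window was thus the poorest in CG of the 11, and the dimmest gene, HOXD12, stood at their median. Both strands were searched for 3 motifs. TGATTNAT, the letters of a composite PBX and HOX site, occurred in 2 of the 11 windows (HOXD11 and HOXA2) and in 2.82% of all windows. TATAAA, the TATA box, occurred in 1 (HOXD13) and in 11.5% of all windows. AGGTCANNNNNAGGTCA, a retinoic acid response element, occurred in 0 of the 11 and in 0.0057% of all windows. No window held more than 1 kind of these motifs, and a match is a description of the letters only.

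In untreated cells, at the cutoff used here, the bright HOX genes among those analysed were a short list drawn from low and middle paralogue numbers. A gene was represented by its brightest probe set over all arrays and placed by its percentile among all probe sets of an array. HOXB2, HOXB3, HOXB7, HOXC6 and HOXD4 lay above the 75th percentile on all 3 untreated arrays. These are 5 of 28 HOX genes, or 17.9%, against 32.7% of all 19775 genes. Between that level and the median on every array lay 8 more: HOXB5, HOXB9, HOXC9, HOXC10, HOXD8, HOXD9, HOXD10 and HOXD13. At or above the median on every untreated array there were then 13 of 28, against 47.8% of all genes. Another 7 (HOXB4, HOXB6, HOXC4, HOXC8, HOXC11, HOXD1 and HOXD11) lay above the median on some untreated arrays and below it on others, and 8 (HOXA2, HOXB1, HOXB8, HOXB13, HOXC5, HOXC12, HOXC13 and HOXD12) lay below it on every one. A 3′ array signal near the dim end does not show whether a transcript was absent.

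**Figure D1:**
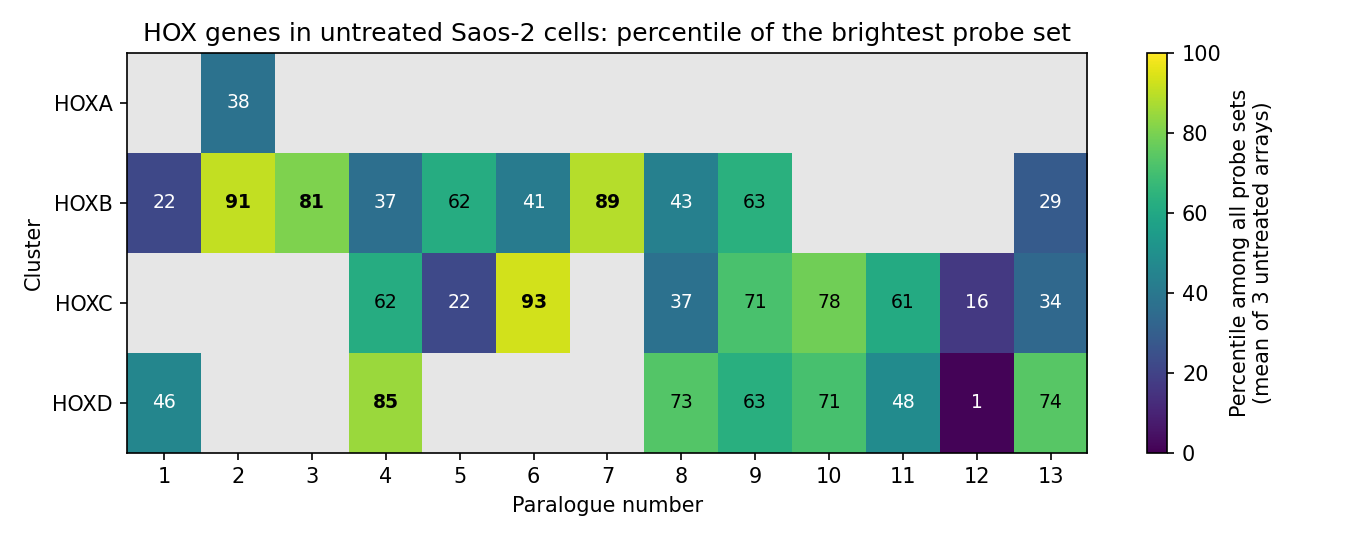
Percentile of each HOX gene's brightest probe set among all probe sets, as the mean of the 3 untreated arrays, by cluster (rows) and paralogue number (columns). Bold numbers are the 5 genes above the 75th percentile on every untreated array, from HOXC6 at 93.2 to HOXB3 at 80.8, and grey squares are positions with no gene or with a gene not analysed here.

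By paralogue number, 2 of the 5 genes numbered 1 to 3 reached the 75th percentile on every untreated array (HOXB2 and HOXB3), as did 3 of the 11 numbered 4 to 8 (HOXB7, HOXC6 and HOXD4) and 0 of the 12 numbered 9 to 13. Of those 12, 6 (HOXB9, HOXC9, HOXC10, HOXD9, HOXD10 and HOXD13) stayed above the median on every untreated array. That is near the share of all genes, 47.8%, so it does not set the high-numbered genes apart. By cluster, HOXB held 3 of the bright genes, HOXC 1 and HOXD 1. The 75th percentile fell in a narrow gap: HOXB3 had a lowest percentile of 78.8 and HOXC10 one of 74.7. HOXC10, a high-numbered gene, joined the bright ones without untreated replicate 3 or by the mean percentile over the 3 untreated arrays. High-numbered HOXA genes were not analysed here. Bright and dim genes were neighbours within clusters, as the map by cluster and paralogue number shows: HOXC6 ranged from 92.3 to 93.8 and its neighbour HOXC5 from 9.98 to 28.3, while HOXD13 ranged from 71.8 to 77.3 and its neighbour HOXD12 from 0.291 to 1.54. In human cells HOXC4, HOXC5 and HOXC6 can be transcribed from a shared upstream promoter. Their signals came from separate probe sets.

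HOXC6, which acts in the thorax and the forelimb in mouse, was the brightest member. Its signal was 728, 386 and 351.2 on the 6 h arrays, 567 and 386 on the 12 h arrays, and 459, 423 and 578 on the untreated arrays (replicates in the order given above). The 6 h arrays spanned all the others, and the groups overlapped.

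HOXB2, needed for hindbrain and facial nerve development in mouse, had signals of 274, 195 and 311 after 6 h, 312 and 322 after 12 h, and 362, 344 and 329 untreated. All 3 untreated arrays were higher than all 5 treated arrays. HOXB3, its cluster neighbour, which also acts in the hindbrain in mouse, gave 136, 165 and 113 after 6 h, 119 and 110.4 after 12 h, and 110.5, 168 and 125 untreated. Its replicate 2 arrays were the highest in both groups that have one, and the groups overlapped.

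HOXB7, which is often raised in cancer cells, gave 352, 242 and 272 after 6 h, 402 and 299.6 after 12 h, and 334, 242 and 274 untreated. Within each number the 6 h and untreated arrays were nearly equal. HOXD4, which patterns the hindbrain and the cervical vertebrae in mouse, gave 179.8, 217 and 193 after 6 h, 241 and 192 after 12 h, and 174, 248 and 159 untreated. The 12 h arrays lay inside the untreated range. HOXC10, a gene of the lumbar region and hindlimb in mouse, gave 86.0, 115 and 132 after 6 h, 103 and 98.9 after 12 h, and 95.1, 166 and 80.0 untreated, and its groups overlapped too.

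**Figure D2:**
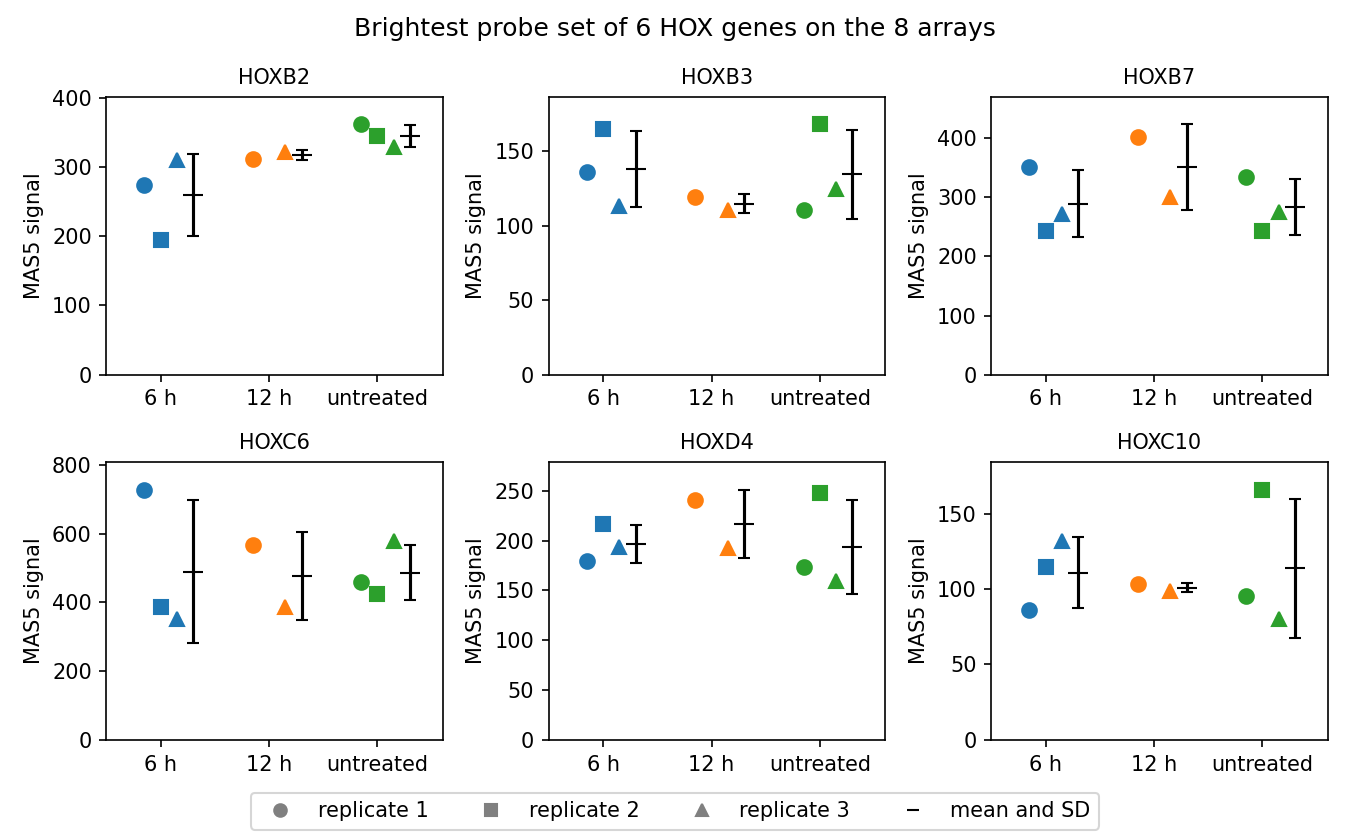
MAS5 signal (linear scale from 0) of the brightest probe set of the 5 bright HOX genes and of HOXC10, just below them, on each array after 6 h, after 12 h and in untreated cells. Marker shapes are replicate numbers and bars are the mean and SD, and only HOXB2 shows treated arrays that all lie below the untreated ones.

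Among the HOXD genes of high number, which pattern the limb from the forearm to the digits, HOXD13 and HOXD10 had untreated signals of middle size. HOXD13, in which human mutations cause joined and extra digits, gave 53.0, 86.1 and 66.7 after 6 h, 82.3 and 63.7 after 12 h, and 98.0, 97.9 and 72.3 untreated. HOXD10 gave 117, 93.3 and 66.6 after 6 h, 66.6 and 45.8 after 12 h, and 70.5, 89.4 and 56.3 untreated. Within each number, HOXD13 was lower on the treated array every time, and HOXD10 was higher after 6 h and lower after 12 h. These values are from the brightest probe set of each gene. The dimmer probe sets of HOXD13 and HOXD10 did not keep these directions in every pair.

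HOXD9 gave 8.53, 24.1 and 20.6 after 6 h, 43.0 and 32.1 after 12 h, and 38.7, 85.0 and 25.6 untreated. All 3 of its 6 h arrays lay below all others. HOXD11, which shapes the forearm bones together with HOXA11 in mouse, gave 48.0, 80.6 and 27.8 after 6 h, 20.2 and 19.5 after 12 h, and 35.3, 22.8 and 19.0 untreated. Its 6 h arrays lay above its 12 h arrays, and both overlapped the untreated ones. HOXD12, the gene between HOXD11 and HOXD13, gave 6.58, 13.3 and 0.614 after 6 h, 2.85 and 4.52 after 12 h, and 1.33, 3.72 and 0.398 untreated.

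The other HOXC genes tested were of middle or low brightness. HOXC11, a hindlimb gene in mouse, gave 33.8, 127 and 10.7 after 6 h, 10.1 and 11.4 after 12 h, and 22.05, 119.6 and 23.3 untreated. Its replicate 2 arrays were the highest by far. HOXC8, which patterns the thoracic vertebrae in mouse, gave 33.3, 108 and 6.36 after 6 h, 36.7 and 11.2 after 12 h, and 7.39, 25.0 and 16.9 untreated, and every group spanned a wide range. HOXC4 gave 138, 72.9 and 42.5 after 6 h, 49.7 and 63.1 after 12 h, and 65.9, 36.2 and 68.0 untreated. HOXC9 was steadier, at 71.0, 75.1 and 62.3 after 6 h, 55.9 and 67.2 after 12 h, and 57.6, 99.0 and 61.1 untreated. The highest readings of HOXC11 and HOXC8 were on replicate 2 arrays, while HOXC9 kept a middle level throughout.

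HOXD8 gave 73.7, 87.2 and 57.1 after 6 h, 91.4 and 52.9 after 12 h, and 62.9, 153 and 40.1 untreated, and HOXD1 gave 23.2, 52.6 and 39.6 after 6 h, 24.5 and 22.2 after 12 h, and 8.99, 48.2 and 24.8 untreated. In the HOXB cluster, HOXB9, which patterns the ribs in mouse, gave 17.0, 42.7 and 32.5 after 6 h, 31.8 and 30.8 after 12 h, and 24.3, 133 and 25.5 untreated, from a probe set whose suffix (x) marks possible cross-hybridisation. For HOXD8 and HOXB9 the untreated replicate 2 array was the highest of all 8. HOXB5 gave 64.6, 60.0 and 22.7 after 6 h, 53.7 and 29.2 after 12 h, and 31.4, 78.5 and 33.8 untreated, and HOXB6 gave 33.2, 35.3 and 13.6 after 6 h, 18.5 and 21.5 after 12 h, and 34.3, 13.1 and 14.6 untreated. The groups overlapped for all of these.

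The 9 remaining members were too dim to test: HOXA2, HOXB1 and HOXB4 at the head end of their clusters, HOXB8, HOXC5 in the middle, and HOXB13, HOXC12, HOXC13 and HOXD12 at the tail end. On the replicate 2 arrays their signals ran from 3.72 to 87.3 with a median of 13.7, and on the other arrays from 0.398 to 52.1 with a median of 9.48. HOXB13, a gene of the prostate and the end of the trunk, gave 12.3, 6.48 and 14.01 after 6 h, 17.6 and 3.71 after 12 h, and 4.24, 20.7 and 10.1 untreated. HOXC13, which hair and nails need, gave 31.0, 24.7 and 13.1 after 6 h, 9.53 and 2.99 after 12 h, and 10.7, 35.04 and 4.86 untreated. Both stayed in the range where replicates of 1 group differ several-fold. HOXC12 gave 1.49, 87.3 and 5.88 after 6 h, 9.44 and 6.56 after 12 h, and 1.75, 16.3 and 3.85 untreated, and HOXB8 gave 8.12, 45.7 and 11.7 after 6 h, 1.31 and 13.3 after 12 h, and 12.2, 49.7 and 12.4 untreated. The replicate 2 arrays were the highest for both. HOXC5 gave 19.3, 12.1 and 17.5 after 6 h, 13.9 and 11.5 after 12 h, and 7.63, 10.3 and 4.85 untreated, so all 5 treated arrays were higher than all 3 untreated ones. Such a separation upward was seen for 0.652% of all 19775 genes, HOXC5 was below the level tested, and without a test its difference stays a description. HOXA2, a gene of the hindbrain and its neural crest in mouse, gave 14.5, 13.2 and 7.70 after 6 h, 19.7 and 14.8 after 12 h, and 19.7, 14.1 and 15.1 untreated. HOXB1 gave 2.32, 8.02 and 7.20 after 6 h, 14.7 and 6.53 after 12 h, and 15.2, 6.45 and 3.02 untreated, and HOXB4, which promotes blood stem cell growth, gave 52.1, 10.6 and 15.1 after 6 h, 21.9 and 6.91 after 12 h, and 24.3, 19.1 and 6.68 untreated. For these 3 both treated groups overlapped the untreated one, while HOXA2 was higher and HOXC13 lower on both 12 h arrays than on all 6 h arrays. Among the 12063 genes tested, 7.1% separated upward and 4.5% downward in that way. No such share was taken over the dim genes, and neither difference was tested.

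Of the 28 genes, 13 had several probe sets, and these disagreed for some genes. The mean untreated percentile of HOXB3 was 80.8 on its brightest probe set and 22.4 on its dimmest, that of HOXD10 was 70.7 and 17.4, that of HOXD13 was 74.2 and 34.6, and that of HOXD9 was 63.2 and 27.5. HOXB7 and HOXD4 were closer, at 88.8 and 73.8 for HOXB7 and at 85.1 and 68.4 for HOXD4. With all probe sets of a gene averaged, 3 genes (HOXB2, HOXB7 and HOXC6) stayed above the 75th percentile on every untreated array in place of 5.

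The next comparison asked whether this pattern held after treatment. No HOX gene passed the threshold in any contrast (limma with Benjamini-Hochberg adjustment over all 12063 genes tested, adjusted p under 0.05). The 19 HOX genes tested were those with a log2 signal above 4.22, the median over probe sets, as a mean of the 8 arrays. Over all genes the same test called 0% at 6 h and 0% at 12 h, and the smallest adjusted p was 0.9999 at both times, so the count of 0 among HOX genes matches a count of 0 everywhere. At an unadjusted p under 0.05 there were 79 genes (0.655%) at 6 h, 74 (0.613%) at 12 h and 88 (0.73%) for 12 h against 6 h, with 0 HOX genes in each. These counts rose when the replicate number was taken as a block, to 493 genes (4.09%, 2 of them HOX) at 6 h and 262 (2.17%, 0 HOX) at 12 h. For 12 h against 6 h the count was then 297 (2.46%, 1 HOX), and 0 genes passed the adjusted threshold in these contrasts. The 2 at 6 h were HOXB2 and HOXD9, and the 1 at 12 h against 6 h was HOXD9. A p that misses the threshold does not show that levels were equal, and the intervals below give the changes these arrays leave possible.

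For 4 of the 5 bright genes (HOXB3, HOXB7, HOXC6 and HOXD4) the log2 differences of the brightest probe set lay between -0.21 and 0.30. HOXB2 is described in the next paragraph. At 6 h against untreated, HOXC6 differed by -0.06 (95% interval -0.72 to 0.60), HOXB3 by 0.04 (-0.60 to 0.69), HOXB7 by 0.02 (-0.55 to 0.60) and HOXD4 by 0.05 (-0.55 to 0.64). At 12 h against untreated, HOXC6 differed by -0.04 (-0.79 to 0.70), HOXB3 by -0.21 (-0.93 to 0.51), HOXB7 by 0.30 (-0.34 to 0.95) and HOXD4 by 0.18 (-0.48 to 0.85). Every one of these intervals spans 0. These 4 intervals at 6 h and at 12 h all lie within -1 and 1 on the log2 scale. All 5 bright genes also stayed above the 75th percentile on each of the 8 arrays, as did 91.8% of the 6463 genes that were above it on every untreated array.

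HOXB2 was the only bright gene whose treated arrays all lay below its untreated ones. It averaged 260 ± 59.2 after 6 h (SD, n = 3), 317 ± 7.01 after 12 h (n = 2) and 345 ± 16.2 untreated (n = 3). The log2 difference was -0.44 ± 0.26 (SE) at 6 h, with an interval of -0.99 to 0.12, and -0.12 ± 0.29 at 12 h, with an interval of -0.74 to 0.50. Its 3 untreated arrays lay above all 5 treated arrays, a separation that 1.48% of all genes show in either direction and 0.522% in that direction, and that HOXB2 alone showed among the 19 tested. In limma it did not pass the threshold at either time. With the replicate number as a block the 6 h interval was -0.86 to -0.011 (unadjusted p = 0.0455, adjusted p = 0.831, limma). With each array centred on its median, which moved the median of all genes at 12 h to 0.66, the 12 h difference of HOXB2 turned to 0.46 and that of HOXD10 and HOXD13 to 0.22 and 0.29, all still below the median gene. The lowest array, 6 h replicate 2, is from the pair that stood apart, and without it the 6 h difference was -0.24.

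At 6 h, 11 of the 19 HOX genes tested lay above 0 and 8 below, with a median log2 difference of 0.02, the same as the median of all 12063 genes. HOXD9 averaged 17.7 ± 8.16 after 6 h and 49.8 ± 31.2 untreated (SD, n = 3 each), a log2 difference of -1.44 ± 0.73 with an interval of -3.02 to 0.14. With the replicate block that interval was -2.58 to -0.29 (unadjusted p = 0.0198, adjusted p = 0.831, limma). HOXD13 averaged 68.6 ± 16.6 after 6 h and 89.4 ± 14.8 untreated, a log2 difference of -0.40 ± 0.36. In the other direction HOXD11 averaged 52.1 ± 26.6 after 6 h and 25.7 ± 8.52 untreated, a log2 difference of 0.94 ± 0.67. HOXD1 differed by 0.72 ± 0.79 and HOXC4 by 0.47 ± 0.48. These sizes turned on single arrays: without untreated replicate 1 the HOXD1 difference was 0.08 and without 6 h replicate 2 it was 0.46, without untreated replicate 2 it was 1.29, without 6 h replicate 1 the HOXC4 difference was 0.03, and without 6 h replicate 2 the HOXD11 difference was 0.56. Without untreated replicate 2 or 6 h replicate 3 HOXC4 came to 0.17 and 0.88, and without 6 h replicate 1 HOXD13 came to -0.22. These 5 and HOXB2 had the smallest p-values in each direction, and none passed the threshold. The 6 h and untreated arrays did not overlap for 2 of the 19 (HOXB2 and HOXD9, both lower after 6 h), against 3.54% of all genes in either direction and 1.51% in that direction. The same direction in all 3 same-numbered pairs was seen for HOXD1, HOXD10 and HOXD11 (higher after 6 h) and for HOXB2, HOXD9 and HOXD13 (lower), 6 of 19 against 24% of all genes.

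**Figure D3:**
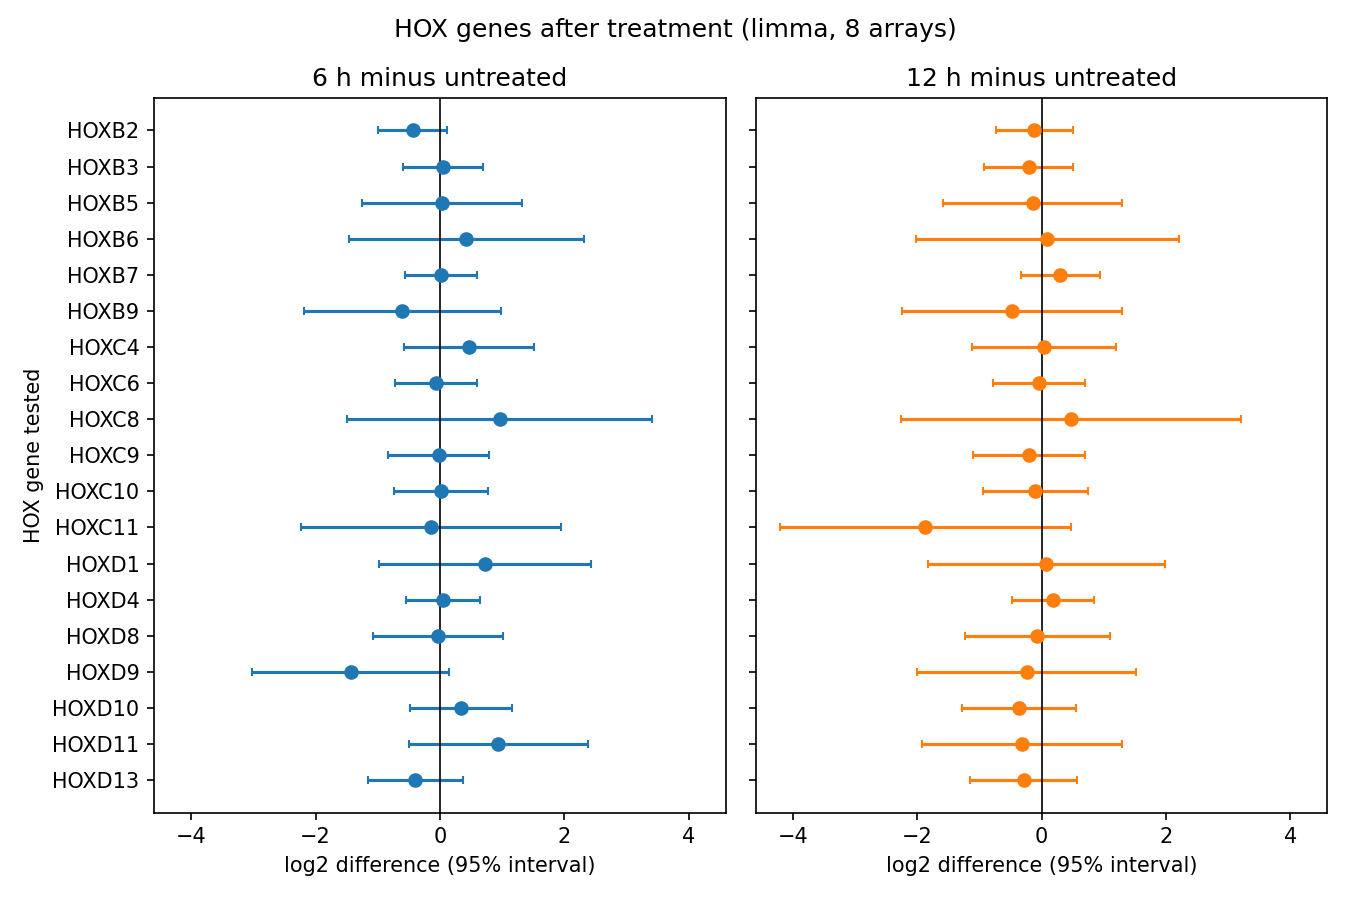
Log2 difference of the 19 tested HOX genes after 6 h (left) and after 12 h (right) against untreated cells, with 95% intervals from limma without the replicate block. Every interval drawn spans 0, and HOXC8, HOXC11 and HOXD9 have wide ones while HOXB2, HOXB3, HOXB7, HOXC6 and HOXD4 have narrow ones.

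At 12 h, 6 of the 19 lay above 0 and 13 below, with a median of -0.12 against 0.08 for all genes. That lean was not stable. With the replicate number as a block, under quantile normalization, or without both replicate 2 arrays, 10 lay above 0 and 9 below. The medians were then 0.07, 0.0016 and 0.05, against 0.045, 0.065 and 0.036 for all genes. Centring arrays on their median shifted HOX genes and all genes alike. It gave 18 above 0 and 1 below, while the HOX median (0.46) stayed below that of all genes (0.66). HOXC11 averaged 10.8 ± 0.92 after 12 h (n = 2) and 54.98 ± 56.0 untreated (SD, n = 3), a log2 difference of -1.87 ± 1.08 with an interval of -4.21 to 0.47. Its untreated mean rests on replicate 2, for which no 12 h array was analysed here, and without that array the difference was -1.07. HOXD10 differed by -0.36 ± 0.42 and HOXD13 by -0.29 ± 0.40, while HOXC8 differed by 0.47 ± 1.27 and by -0.38 without 12 h replicate 1. The 12 h and untreated arrays did not overlap for HOXB2 and HOXC11, both lower after 12 h, 2 of 19 against 14.5% of all genes in either direction and 4.89% in that direction. Both same-numbered pairs went in the same direction for 6 genes higher after 12 h (HOXB7, HOXB9, HOXC10, HOXD4, HOXD8 and HOXD9) and 5 lower (HOXB2, HOXC4, HOXC11, HOXD10 and HOXD13), 11 of 19 against 59% of all genes. Over all 5 pairs of treated and untreated arrays, HOXB2 and HOXD13 (brightest probe set) were lower each time, 2 of 19 against 12.6%. On their brightest probe sets, HOXD9 and HOXD10 went in opposite directions at the 2 times in all their pairs. These were 2 of 19 against 2.61% of all genes. Over the whole groups HOXD9 at 12 h differed from untreated by -0.24 ± 0.82 and by 0.14 with the block. The untreated replicate 2 array (85.0) has no 12 h partner among the arrays analysed here. The comparisons at 6 h and at 12 h share the untreated arrays.

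Between the treatment times, HOXD9 was higher at 12 h, averaging 37.6 ± 7.67 (n = 2) after 12 h and 17.7 ± 8.16 (n = 3) after 6 h, a log2 difference of 1.20 ± 0.82. HOXD11 averaged 19.9 ± 0.509 after 12 h and 52.1 ± 26.6 after 6 h, a difference of -1.26 ± 0.75, and HOXD10 averaged 56.2 ± 14.7 after 12 h and 92.2 ± 25.0 after 6 h, a difference of -0.70 ± 0.42. HOXC11 differed by -1.73 ± 1.08, and by -0.82 without 6 h replicate 2, an array with no 12 h partner analysed here, or -2.60 without 6 h replicate 3. Without 6 h replicate 1 the HOXD9 difference was 0.74, and without 12 h replicate 3 the HOXD10 difference was -0.43. HOXB2 differed by 0.31 ± 0.29 (0.12 without 6 h replicate 2) and HOXB7 by 0.28 ± 0.30. None passed the threshold in limma. The arrays did not overlap for HOXB2 and HOXD9 (higher at 12 h) and HOXD11 (lower at 12 h), 3 of 19 against 11.6% of all genes, of which 7.1% were higher and 4.5% lower at 12 h. With the treated arrays pooled, 8 of the 19 lay above 0 and 11 below, with a median of -0.04 against 0.04 for all genes. Both with the replicate block and without both replicate 2 arrays, 12 lay above and 7 below. Without untreated replicate 2 alone, 14 lay above and 5 below. Centring arrays on their median also gave 14 above and 5 below, with medians of 0.19 for HOX genes and 0.27 for all genes. HOXC8 differed from untreated by 0.77 ± 0.97 (0.23 without 6 h replicate 2), HOXD9 by -0.96 ± 0.66 (-0.48 without untreated replicate 2) and HOXD13 by -0.35 ± 0.29, with 0 genes past the threshold of all 12063 and 94 (0.779%, 0 of them HOX) at an unadjusted p under 0.05, or 489 (4.05%, 0 HOX) with the block.

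Members differed widely in their spread over the 8 arrays. The highest signal over the lowest was 1.52-fold for HOXB3, 1.56-fold for HOXD4 and 1.66-fold for HOXB7, and it was 17.0-fold for HOXC8, 12.5-fold for HOXC11 and 9.97-fold for HOXD9. The median was 2.70-fold over the 19 HOX genes and 2.37-fold over all genes tested. Without the replicate 2 arrays these medians were 2.28-fold and 1.84-fold, and HOXC11 came to 3.33-fold. Over the 8 arrays the 3 steadiest genes were among the bright ones, and none of the 3 most variable was. Without the replicate 2 arrays the 3 steadiest were HOXB3 (1.23-fold), HOXC9 (1.27-fold), which is not a bright gene, and HOXB2 (1.32-fold). HOXC6, the brightest member, spread 2.07-fold in both settings. The median standard error at 6 h was 0.48 for the HOX genes and 0.35 for all genes.

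Genes that work with or on the HOX clusters were looked at from lists written from textbook knowledge. The counts of bright genes in these lists stand beside 32.7% of all 19775 genes. Among 8 HOX cofactors measured, MEIS2, PBX3 and PKNOX1 lay above the 75th percentile on every untreated array (37.5%, near that share). MEIS2, a homeodomain partner of HOX proteins, gave 752, 714 and 692 after 6 h, 747 and 684 after 12 h, and 593, 531 and 895 untreated. PBX3, another such partner, gave 149, 67.1 and 114 after 6 h, 134 and 94.1 after 12 h, and 94.5, 141 and 82.2 untreated. The groups overlapped for both. MEIS1 gave 18.9, 121 and 34.3 after 6 h, 71.3 and 36.4 after 12 h, and 63.0, 58.6 and 39.0 untreated, a middle level. Of 7 cofactors tested, 0 passed the threshold at 6 h or 12 h.

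Of 22 chromatin regulators of HOX clusters, 17 lay above the 75th percentile on every untreated array (77.3%), among them EZH2, the polycomb methyltransferase, and KMT2A, the trithorax methyltransferase that maintains HOX expression. EZH2 gave 307, 336 and 325 after 6 h, 418 and 354 after 12 h, and 367, 280.1 and 362 untreated. KMT2A gave 266, 174 and 286 after 6 h, 299 and 316 after 12 h, and 240.2, 156 and 328 untreated. At 12 h, 20 of the 22 lay above 0 and 2 below, with a median log2 difference of 0.20 against 0.08 for all genes, and 0 passed the threshold. With the replicate block 17 lay above 0 and 5 below, with a median of 0.10. The untreated replicate 2 array, for which no 12 h array was analysed here, read low for some of them: EED gave 1118, 541 and 1105 untreated, and SUZ12 gave 1100.3, 549 and 1008. JARID2, a polycomb subunit, had the smallest p of the list at 12 h, with a log2 difference of 0.62 ± 0.33.

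Of 32 other positional homeobox and T-box genes, 6 lay above the 75th percentile on every untreated array (TBX3, SHOX2, EN1, MSX2, DLX5 and DLX6), which is 18.8%. SHOX2, which the upper limb segment needs in mouse, gave 495, 233 and 317 after 6 h, 466 and 348 after 12 h, and 346, 259 and 342 untreated. TBX5, the forelimb T-box gene, gave 22.6, 20.7 and 7.33 after 6 h, 31.9 and 15.1 after 12 h, and 40.4, 62.8 and 18.8 untreated. PITX1, the hindlimb homeobox gene, gave 45.0, 5.08 and 60.5 after 6 h, 56.3 and 58.1 after 12 h, and 46.1, 79.5 and 48.9 untreated. TBX4, its partner in the hindlimb, stayed dim, from 2.14 to 15.3 over the 8 arrays. In untreated cells the limb selector genes TBX5 and PITX1 lay at percentiles of 53.7 to 63.9 and 65.1 to 68.4. SFTPB, from the list of genes restricted to other organs, lay at 66.5 to 71.6. These middle levels therefore do not show that TBX5 or PITX1 was expressed.

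Of 15 retinoic acid genes, 4 lay above the 75th percentile on every untreated array (RARB, RXRA, RXRB and RDH10). This is 26.7%, near the 32.7% of all genes. RARB, a receptor that retinoic acid itself induces, gave 102, 165 and 155 after 6 h, 117 and 211 after 12 h, and 117, 179.7 and 167 untreated. Of 11 HOX antisense and long non-coding RNAs, 0 lay above that percentile on every untreated array. HOTTIP, transcribed at the tail end of HOXA, gave 62.5, 165 and 35.5 after 6 h, 79.2 and 42.4 after 12 h, and 83.6, 247 and 43.6 untreated, while HOTAIR, transcribed within HOXC, gave 22.5, 20.0 and 6.88 after 6 h, 12.9 and 2.995 after 12 h, and 6.79, 32.004 and 9.51 untreated. HOTTIP and HOTAIR were both brightest on replicate 2 among the untreated arrays. No gene of these lists passed the threshold at 6 h or 12 h.

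**Figure D4:**
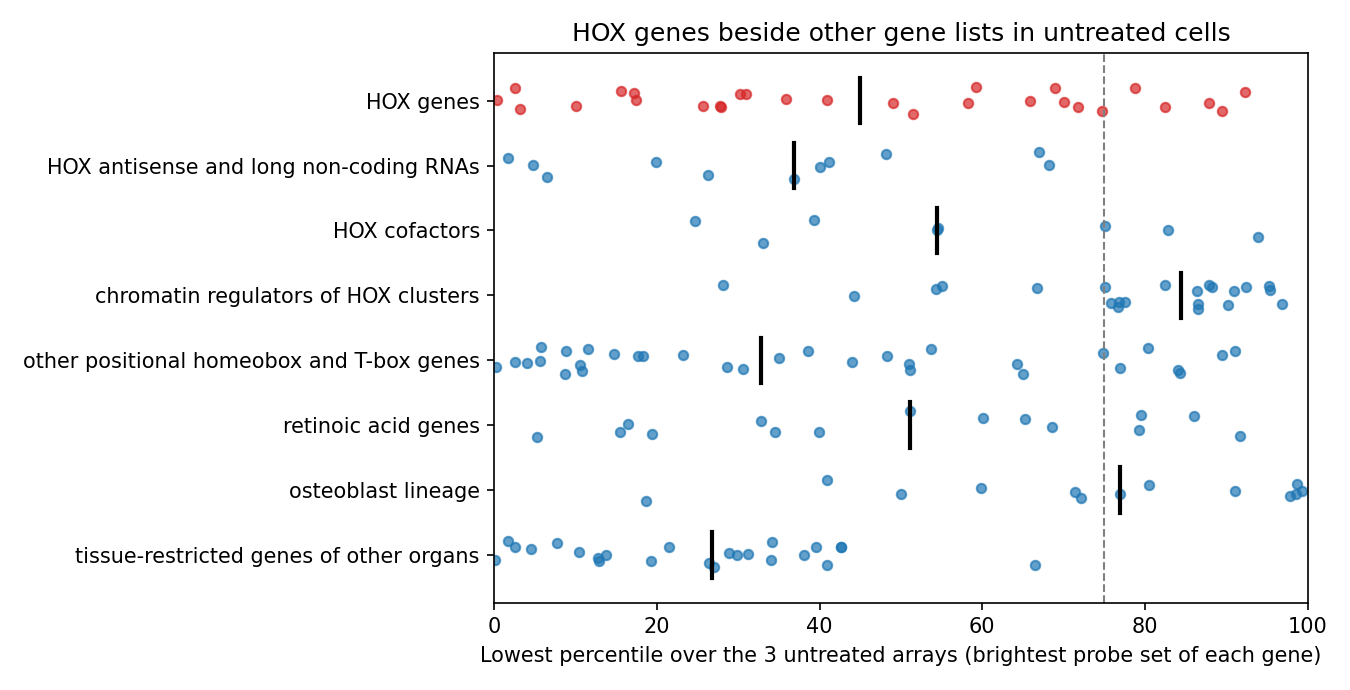
Lowest percentile over the 3 untreated arrays for the brightest probe set of each gene, by gene list, with a dashed line at the 75th percentile and a black bar at the list's median. The HOX median is 45.0, between those of the tissue-restricted genes (26.7) and the osteoblast lineage (76.9) and chromatin regulator genes (84.4).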

How the data were processed

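Biotin-labelled cRNA of 8 Saos-2 samples was hybridised to Affymetrix 3′ arrays, per the labels. The authors deposited a linear intensity for each probe set, which the submitters' processing notes credit to MAS5. The MAS5 version and settings are not given in the sources used here, and detection calls were not used. Precision is limited by how few arrays there are.

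Of 54675 probe sets, 62 controls were left out. The platform annotation gave 1 symbol for 41091, several for 1801 and none for 11721, and a gene's brightest probe set with 1 symbol stood for it. Percentiles were taken within each array. For tests, signals below 2.39, the 10th percentile over the table, were raised to that floor and then log2-transformed, which understates differences of dim genes, and genes with a mean log2 signal above 4.22 were kept. R 4.3.3 and limma 3.58.1 (lmFit, eBayes with a variance trend) fitted the 3 groups together, with two-sided p-values adjusted over 12063 genes and a threshold of 0.05. The procedure was tested on simulated data in which arrays varied independently. Those data held no effect shared by same-numbered arrays and no shift of the replicate 2 arrays, so the procedure was not tested under either.

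Deviations of same-numbered arrays from their group means correlated at 0.108 to 0.637 in 7 pairs, against -0.576 to 0.333 in the 14 other pairs. These ranges overlap. The replicate 1 pairs reached at most 0.163, while 12 h replicate 1 correlated at 0.295 and 0.333 with the 6 h and untreated replicate 2 arrays. Deviations from means of 2 or 3 arrays are also tied to each other. Whether the numbers pair the samples was therefore not settled, and the block served as an alternative only. Named members were those above the 75th percentile on every untreated array, the 3 smallest p-values in each direction per contrast, and the 3 largest and 3 smallest ranges; values of the remaining members were added for completeness, and HOXC5, HOXB8 and HOXC12 are described with their values seen. Of the other lists, genes with a known role in HOX regulation or limb position and the smallest p were named. The members and lists were chosen with earlier results of these data known. Promoter windows came from RefSeq, matched by symbol. Alternatives covered scaling, floor, pseudocount, filter, probe-set choice, variance trend, the samples in the fit, the replicate block, array weights and arrays left out.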

Additional observations from a re-analysis of the deposited data

Results flagged for a closer look

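On their brightest probe sets, HOXD10 and HOXD9 went in opposite directions at the 2 treatment times in every same-numbered pair. HOXD10 was higher than untreated in all 3 pairs at 6 h and lower in both at 12 h, and its 12 h minus 6 h log2 difference was -0.70. HOXD9 was lower in all 3 pairs at 6 h and higher in both at 12 h, and its 12 h minus 6 h log2 difference was 1.20. Over the whole groups HOXD9 at 12 h was still -0.24 against untreated, and 0.14 with the replicate block, so its opposite directions hold by pairs only, which leave out untreated replicate 2 at 12 h. Among all genes tested 2.61% show such a pattern. The dimmer probe sets of HOXD10 and HOXD9 did not keep these directions in every pair. Neither direct difference passed the threshold in limma, with an adjusted p of 0.99998, or 0.972 with the replicate block. The times share the untreated arrays, and no group had enough arrays to look for single outlying samples by a formal rule.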

How the results depend on the processing

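No HOX gene and no other gene was called in any contrast under any of the 23 other settings of the fit (smallest adjusted p 0.135 over all genes and 0.185 among HOX genes, limma). Unadjusted p-values under 0.05 reached 2384 genes and 2 HOX genes at most. With the replicate number as a block the count stayed at 0 in every contrast, HOXB2 was -0.44 at 6 h and -0.22 at 12 h, and the block changed no call. Of 31 log2 differences of named genes, 17 kept their sign under every alternative run. The count of 5 bright HOX genes became 13 at the median of the array, 1 at the 90th percentile, 3 with the mean percentile of all probe sets, and 5 to 6 with an untreated array left out. HOXC10 was the gene added when untreated replicate 3 was left out. Centring arrays on their median moved the median of all genes at 12 h to 0.66, and with it HOXB2 to 0.46, HOXB3 to 0.37, HOXC6 to 0.54, HOXD10 to 0.22 and HOXD13 to 0.29, all below that shift. Averaging probe sets gave HOXD4 -0.25 at 6 h and -0.41 at 12 h, and HOXD13 0.20 at 12 h. Array weights gave HOXB7 -0.14 at 6 h, and HOXC4 -0.25 and HOXD11 -0.30 with the treated arrays pooled. Array weights with the block gave HOXC4 -0.13 and HOXB3 -0.043 at 6 h, and HOXC4 -0.19 pooled. Without both replicate 2 arrays HOXC4 was -0.030 pooled, with the block or without. Leaving out 1 array at a time gave, at 6 h, -0.093 to 0.22 for HOXB3, -0.13 to 0.15 for HOXB7, -0.39 to 0.14 for HOXC6 and -0.081 to 0.24 for HOXD4, and at 12 h, -0.32 to 0.23 for HOXC6 and -0.38 to 1.33 for HOXC8. Outside the centring, the cause of these changes of sign was not tested. Dim genes limit what can be seen: 9 of 28 members were not tested.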
